A study of Mus musculus with 16 samples.

Results

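The regions described here were LSD1 peaks of GSK-treated CD8+ T cells that lay far from annotated promoters and had no counterpart in the vehicle (Veh) list. LSD1 is a histone demethylase, and GSK2879552 (GSK) is an irreversible inhibitor of it. A GSK LSD1 peak was taken when its summit lay more than 2.5 kb from every curated RefSeq transcription start site (TSS) and no Veh LSD1 peak lay within 1 kb. This gave 5039 GSK-only sites among 9430 distal GSK LSD1 peaks, which is 53.4% of them and 25.3% of all 19919 GSK LSD1 peaks. The sites were therefore chosen by their measured values in both LSD1 lists, and their LSD1 values below are a description with no test.

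The cells came from the spleens of OT1 mice, in which T cells carry one transgenic receptor. Activation through CD3 and CD28 in the presence of IL-2 lasted 48 h, and expansion in IL-2 followed for 3 days, all with GSK at 0.5 μM or with vehicle throughout. The 6 ChIP antibodies recognised LSD1, RNA polymerase II (Pol II), the acetylation H3K27ac and the methylation states H3K4me1, H3K4me2 and H3K4me3. Each antibody and treatment had 1 library and 1 peak list, so there was no spread between replicates, and no difference below could be tested against one. At curated promoters of the T cell genes Cd3d, Cd3e, Cd3g, Lck, Cd28, Cd8a and Cd8b1, H3K4me3 peaks were present in both treatments. Pol II peaks were absent at Cd8a in both treatments and at Cd3d and Cd3g in Veh cells, and were otherwise present at these genes. None of Ms4a1, Cd79a, Pax5, Lyz2, Csf1r, Itgam, Cd68, Cd4 and Foxp3 had an H3K4me3 peak in either treatment, while Cd68 had a Pol II peak in Veh cells.

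The substrates of LSD1 are H3K4me1 and H3K4me2. The enzyme works in complexes with CoREST and histone deacetylases and is brought to DNA by transcription factors such as those with a SNAG domain. H3K4me1 without H3K4me3 is a common mark of enhancers, H3K27ac marks those that are active, and H3K4me3 marks promoters. In T cells, enhancers are known to be bound by ETS, RUNX and AP-1 family factors. A list with a peak at a site says that the antibody enriched that region over background, and the absence of a peak says only that the threshold of that list was not reached.

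Further sets of positions were used for comparison. Kept sites were the 4391 distal GSK LSD1 peaks with a Veh LSD1 peak within 1 kb, of which 4098 shared a base with it. Lost sites were the reverse of the GSK-only sites, 7523 distal Veh LSD1 peaks that had no counterpart within 1 kb in the GSK list. Grid points were 121473 positions placed every 20 kb along the genome, also more than 2.5 kb from a TSS, and give the background of the distal genome. Intervals are 95% intervals for shares of sites. They cover counting error only and say nothing of variation between cultures.

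The sequences under these sites fell into recurring kinds, and the windows below show them. Windows of 200 bp around each summit were read from the mm10 reference, and windows that shared words of 16 bases were gathered into 8 groups, which held 912 of the 5039 GSK-only sites (18.1%). For groups 3, 7 and 8, picked because at least 90% of their sites had no peak of the other antibodies, the strongest site that holds the leading word is printed. The same is done for groups 2 and 5, which were also frequent at kept and lost sites. Each is read 5′ to 3′ on the strand given. Capitals mark the leading word of the group and any match to the YY1 motif letters AAGATGGC on either strand.

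Group 3, near Sp110, chr1:85571936-85572135, minus strand: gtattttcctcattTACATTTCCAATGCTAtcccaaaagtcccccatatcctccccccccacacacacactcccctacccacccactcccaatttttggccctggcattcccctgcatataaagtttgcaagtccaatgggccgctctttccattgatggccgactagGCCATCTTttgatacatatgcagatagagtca
Group 7, near Elp4, chr2:105858837-105859036, plus strand: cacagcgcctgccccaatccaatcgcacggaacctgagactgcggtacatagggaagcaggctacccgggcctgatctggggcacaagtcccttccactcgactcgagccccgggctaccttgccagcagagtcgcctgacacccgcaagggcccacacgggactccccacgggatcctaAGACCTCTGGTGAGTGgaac
Group 8, near Dbpht2, chr12:74641727-74641926, minus strand: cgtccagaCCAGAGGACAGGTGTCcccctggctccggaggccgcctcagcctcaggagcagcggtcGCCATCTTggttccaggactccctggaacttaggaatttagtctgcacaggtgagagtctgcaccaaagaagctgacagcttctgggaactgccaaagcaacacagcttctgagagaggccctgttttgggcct
Group 2, near Lrch3, chr16:32947244-32947443, minus strand: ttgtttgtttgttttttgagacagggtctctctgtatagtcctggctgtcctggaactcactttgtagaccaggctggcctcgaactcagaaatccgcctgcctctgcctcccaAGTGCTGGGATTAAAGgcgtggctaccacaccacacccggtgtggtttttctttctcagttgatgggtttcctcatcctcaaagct
Group 5, near Lrrc8d, chr5:105644213-105644412, minus strand: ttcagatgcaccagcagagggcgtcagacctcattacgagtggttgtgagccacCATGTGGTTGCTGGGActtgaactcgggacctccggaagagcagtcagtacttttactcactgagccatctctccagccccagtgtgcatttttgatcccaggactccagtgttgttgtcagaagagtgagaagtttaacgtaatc

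The next windows belong to single strong sites that also had other peaks, and were picked as examples of motif matches. Capitals mark matches, on either strand, to the ETS letters AGGAAGT, the RUNX letters TGTGGT, the AP-1 letters TGANTCA and the SP/KLF letters GGGCGG. The Prex1 window had no such match and is shown because it is the strongest GSK-only site and is made largely of a tandem repeat.

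Prex1 site, chr2:166670814-166671013, plus strand: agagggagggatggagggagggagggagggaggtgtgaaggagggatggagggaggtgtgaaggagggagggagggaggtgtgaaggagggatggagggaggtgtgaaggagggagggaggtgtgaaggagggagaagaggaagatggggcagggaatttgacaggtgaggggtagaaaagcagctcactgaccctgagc
Cldn9 site, chr17:23699920-23700119, plus strand: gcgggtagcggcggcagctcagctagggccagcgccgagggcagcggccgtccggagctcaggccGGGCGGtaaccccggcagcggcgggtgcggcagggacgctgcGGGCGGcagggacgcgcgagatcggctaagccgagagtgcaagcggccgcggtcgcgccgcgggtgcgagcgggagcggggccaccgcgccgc
Rny3 site, chr6:47767396-47767595, plus strand: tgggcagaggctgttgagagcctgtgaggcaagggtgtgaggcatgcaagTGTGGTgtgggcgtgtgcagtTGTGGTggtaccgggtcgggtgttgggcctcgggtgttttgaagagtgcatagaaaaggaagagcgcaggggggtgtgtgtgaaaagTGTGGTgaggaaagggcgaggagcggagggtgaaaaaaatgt
Gm12596 site, chr4:59331774-59331973, plus strand: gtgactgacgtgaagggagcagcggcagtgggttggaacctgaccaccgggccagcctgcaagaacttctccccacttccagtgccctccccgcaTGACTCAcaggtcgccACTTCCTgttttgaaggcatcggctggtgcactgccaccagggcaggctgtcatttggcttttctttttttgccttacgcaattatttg
Irf1 site, chr11:53795303-53795502, plus strand: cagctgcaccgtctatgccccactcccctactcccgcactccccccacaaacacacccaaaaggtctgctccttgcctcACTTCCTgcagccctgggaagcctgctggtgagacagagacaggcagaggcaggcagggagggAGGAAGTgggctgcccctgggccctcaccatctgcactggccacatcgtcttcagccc

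As LSD1 peaks, the GSK-only sites were weak. Their median fold enrichment over local background was 3.83, from 1.74 to 8.30, and their median −log10 p was 4.74, from 3.01 to 24.7. Kept sites had a median fold of 4.73 and a median −log10 p of 8.05, and lost sites had medians of 3.81 and 5.11. The median GSK-only site ranked above 19.6% of all GSK LSD1 peaks by −log10 p, and 89.0% of kept sites were stronger than it. Only 2 GSK-only sites were among the 1000 strongest GSK LSD1 peaks. A −log10 q of at least 2 was reached by 2583 GSK-only sites (51.3%), against 89.8% of kept sites and 59.3% of lost sites. The sites were narrow, with a median width of 355 bp against 464 bp for kept sites, and lost sites were close at 361 bp.

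The edges of the rule held ordinary peaks. The site nearest to a TSS lay 2501 bp from that of Gpr83, with a fold of 2.91, and the nearest peak left out on this side lay 2493 bp from that of Sytl3, with a fold of 5.22. The site closest to a Veh LSD1 peak lay 1008 bp from it, near Tmem181b-ps, with a fold of 3.76, and the nearest one left out lay at 999 bp, near Tacc1, with a fold of 5.96. Most sites were far from both edges. The median distance to the nearest Veh LSD1 peak was 27762 bp, 141 sites lay within 2000 bp of one and 1063 lay over 100000 bp away.

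The sites were spread between introns and intergenic DNA. Of the summits, 2356 (46.8%) lay in introns, 456 (9.05%) in exons and 2227 (44.2%, 42.8 to 45.6) outside every RefSeq gene. Kept sites were intergenic in 40.1% (38.7 to 41.6), lost sites in 44.1% (42.9 to 45.2) and grid points in 52.7%. The median distance to a TSS was 30204 bp for GSK-only sites, 29678 bp for lost sites and 21134 bp for kept sites. A distance over 100000 bp was found for 973 GSK-only sites (19.3%), against 18.7% of lost sites, 8.13% of kept sites and 37.2% of grid points. The X chromosome held 178 GSK-only sites (3.53%, 3.06 to 4.08), 36 kept sites (0.820%, 0.593 to 1.13) and 215 lost sites (2.86%, 2.5 to 3.26), where it held 6.50% of the grid.

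GSK-only sites often carried no other peak. Of the 5039, 3152 shared no base with any of the 10 lists of the other 5 antibodies, which is 62.6% (61.2 to 63.9). Among the 2583 sites with a −log10 q of at least 2 it was 48.3% (46.4 to 50.2), so a majority was bare only when weak LSD1 peaks were counted. Without a limit on −log10 q, 11.6% (10.7 to 12.6) of kept sites, 49.9% (48.7 to 51.0) of lost sites and 97.8% of grid points were bare. The difference from kept sites was 51.0 percentage points (49.3 to 52.6), and that from lost sites was 12.7 points (10.9 to 14.4). The bare sites lay further from marked chromatin than bare kept sites did, at a distance close to that of bare lost sites. The nearest H3K4me1 peak of either treatment lay at a median of 27 kb, and 17.0% of the bare sites had one within 5 kb. For the 509 bare kept sites the median was 3.52 kb and the share 56.6%. For bare lost sites they were 26.4 kb and 20.1%, and for bare grid points 98.8 kb and 12.1%.

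H3K4me1 was the most common mark at the sites that had one. In GSK cells an H3K4me1 peak overlapped 1560 sites, or 31% (29.7 to 32.2), against 67.9% (66.5 to 69.3) of kept sites, 40.6% (39.5 to 41.7) of lost sites and 1.56% of grid points. The commonest marked state in GSK cells was H3K4me1 alone, at 1134 sites (22.5%, against 41.5% of kept sites), followed by H3K4me1 with H3K4me2 and H3K4me3 at 175 sites. H3K4me3 was present at 509 sites (10.1%), H3K4me2 at 325 (6.45%), Pol II at 147 (2.92%) and H3K27ac at 39 (0.774%). All 5 shares were above those of grid points, which ran from 0.0231% for H3K27ac to 0.171% for Pol II among the 4 marks other than H3K4me1, and all were below those of kept sites. Lost sites stood close by for Pol II, where GSK-only minus lost was −0.180 points (−0.778 to 0.442), and for H3K4me3, where it was 0.983 points (−0.0634 to 2.05).

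**Figure D1:**
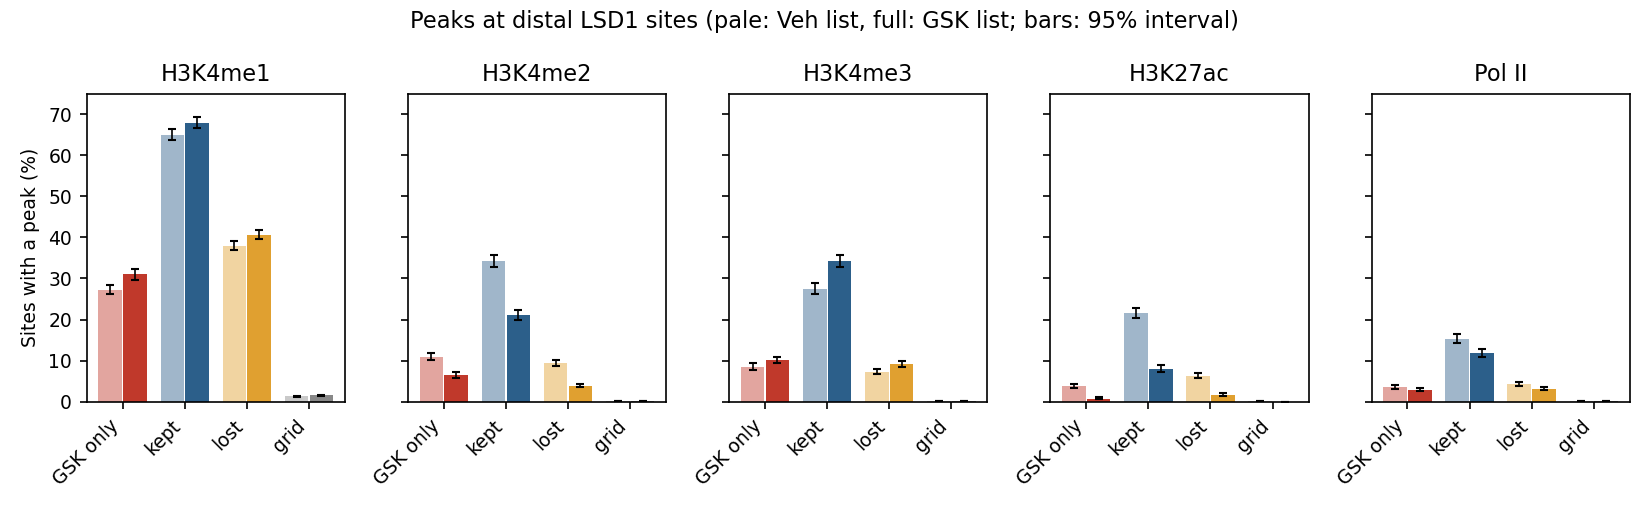
The bars give the percent of sites (vertical axis) that share a base with a peak, by antibody, for GSK-only, kept and lost LSD1 sites and for grid points, in the Veh list (pale) and the GSK list (full), with 95% intervals for counting error. GSK-only sites stand at 27.3% and 31% for H3K4me1, below kept sites at 65.0% and 67.9%.

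The question of most interest at a demethylase site is whether its substrates differ between treatments. Both treatments had an H3K4me1 peak at 1273 sites, only the GSK list had one at 287 (5.70%) and only the Veh list at 101 (2.00%). Over all 16953 distal LSD1 peaks of either treatment, 6.62% had H3K4me1 in GSK only and 3.60% in Veh only. The net difference at GSK-only sites was 3.69 points towards GSK (2.98 to 4.33), and it was 2.89 points (1.84 to 3.91) at kept sites and 2.63 points (1.92 to 3.32) at lost sites. The intervals of the 3 kinds of LSD1 site overlapped. With both H3K4me1 lists shortened to equal length, the net difference at GSK-only sites was 1.92 points (1.18 to 2.63).

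H3K4me2, the other substrate, went the opposite way. It was present in Veh only at 270 sites (5.36%) and in GSK only at 44 (0.873%), where all distal LSD1 peaks gave 8.71% and 1.52%. The net difference was −4.49 points (−4.91 to −3.95), beside −13.2 points at kept sites and −5.50 points at lost sites. It depended on the length of the lists. The GSK H3K4me2 list holds 9437 peaks and the Veh list 15219, and with both cut to equal length the net difference was −0.774 points (−1.36 to −0.163).

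For the remaining antibodies, the treatment with more peaks in its list also had more peaks at these sites. H3K27ac was present in Veh only at 158 sites (3.14%, against 6.68% of all distal LSD1 peaks) and in GSK only at 4 (0.0794%, against 0.218%), with 7410 Veh and 2751 GSK peaks in the lists. H3K4me3 was in GSK only at 101 sites (2.00%, against 3.61%) and in Veh only at 22 (0.437%, against 0.578%). Pol II was in GSK only at 43 sites (0.853%, against 1.68%) and in Veh only at 72 (1.43%, against 3.29%). Each of these shares was below that of all distal LSD1 peaks. By the read numbers that the study states for its libraries, Veh was sequenced more deeply for LSD1, H3K4me2 and, by the widest margin, H3K27ac, and GSK for H3K4me1, H3K4me3 and Pol II. Except for Pol II, the deeper library was thus also the one with the longer list. The part of sequencing depth in these differences was not tested.

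The share of marked sites followed the strength of the LSD1 peak. Among GSK-only sites, H3K4me1 in GSK cells went from 19.9% (17.7 to 22.3) of the 1170 sites with −log10 p from 3 to 4, through 36.5% (34.1 to 38.9) of the 1560 sites from 5 to 7, to 62.8% (54.8 to 70.2) of the 148 sites at 10 and over. Kept sites showed no such slope, with 69.7% (62.0 to 76.4) in the weakest bin and 66% (63.6 to 68.3) in the strongest. Lost sites did, with 18.8% (16.9 to 20.9) in the weakest bin of their own LSD1 peaks, 47.7% from 5 to 7 and 65.0% (61.6 to 68.4) in the strongest, so the slope was shared by both sets called in 1 treatment. The difference between GSK-only and kept sites was −49.8 points (−56.8 to −41.8) in the weakest bin, −32.6 points (−36.2 to −28.9) from 5 to 7 and −3.17 points (−11.5 to 4.58) at 10 and over, where the interval includes 0. Over all strengths it was −37.0 points (−38.8 to −35.1).

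H3K4me3 separated GSK-only from lost sites in the upper bins. At −log10 p of 10 and over, 52 of 148 GSK-only sites had GSK H3K4me3, or 35.1% (27.9 to 43.1), against 13.3% (11 to 15.9) of 761 lost sites and 37.4% of kept sites. The difference from lost sites was 21.9 points (14.2 to 30.1) there and 10.0 points (6.02 to 14.2) from 7 to 10, while below 7 it was within 1 point of 0 in each bin. Of the 509 GSK-only sites with GSK H3K4me3, 115 (22.6%, 19.2 to 26.4) lay within 2.5 kb of the TSS of a RefSeq transcript that is predicted only, against 5.89% (5.24 to 6.62) of the other GSK-only sites. This was not particular to them. With GSK H3K4me3, the share was 21.4% (19.4 to 23.5) of kept sites, 15.7% (13.2 to 18.7) of lost sites and 18.6% (13.7 to 24.6) of grid points. Sites in exons had H3K4me3 in 24.1%, against 8.57% in introns.

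**Figure D2:**
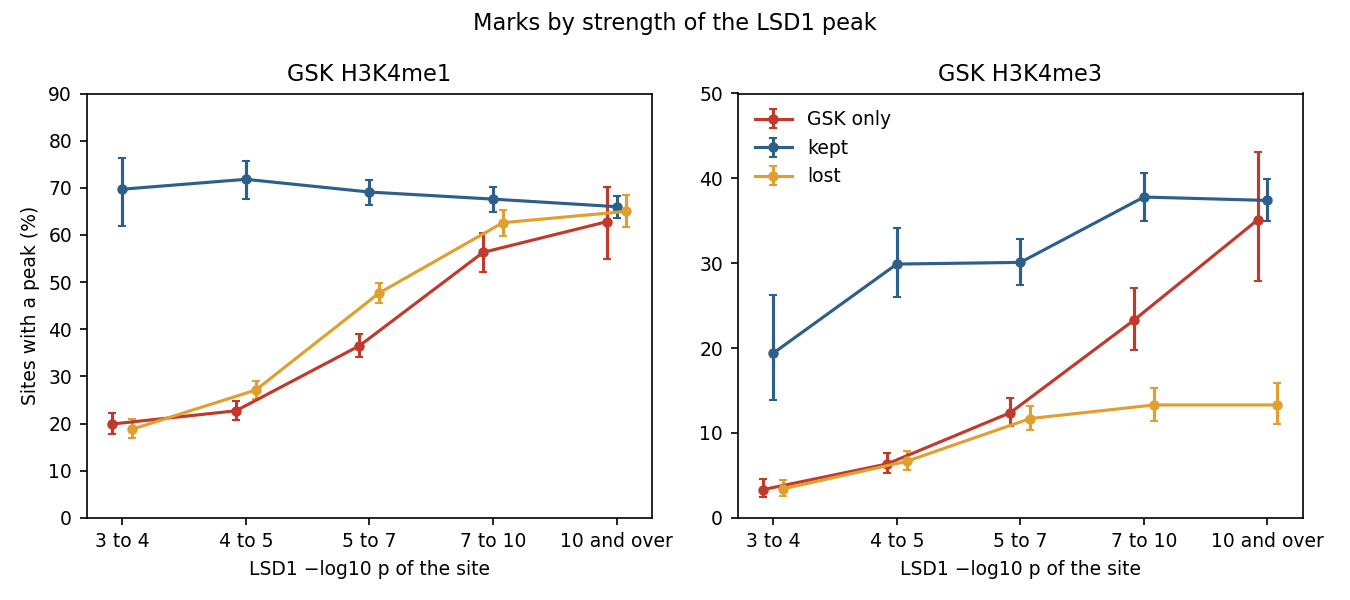
Points give the percent of sites (vertical axis) with a GSK H3K4me1 peak (left) or GSK H3K4me3 peak (right) by the −log10 p of the LSD1 peak (horizontal axis, 5 bins), with 95% intervals. GSK-only sites climb from 19.9% to 62.8% for H3K4me1 while kept sites run from 69.7% to 66%, and at the strongest sites H3K4me3 is at 35.1% for GSK-only and 13.3% for lost sites.

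The strongest sites showed a mixture of these states. The strongest lay in an intron of Prex1, a Rac exchange factor, at chr2:166670721-166671312, with a fold of 6.96 and −log10 p of 24.7. There H3K4me1 had a fold of 2.41 in Veh and 2.48 in GSK cells, and an H3K4me2 peak was called in the GSK list alone (3.70). The nearest Veh LSD1 peak was 1.88 kb away. The second was intergenic near Cldn9, a claudin gene, at chr17:23699445-23700392, with an LSD1 fold of 8.07 and a window of 80% GC that holds 2 SP/KLF matches, as printed above. It had H3K4me1 (4.90 in Veh, 5.80 in GSK), H3K4me2 (7.17 and 7.02) and H3K4me3 (4.58 and 5.97) in both treatments, and no H3K27ac or Pol II peak.

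The site in Nbeal2, a gene needed for platelet granules, had H3K4me3 (7.00 in Veh, 6.12 in GSK) and H3K27ac (3.85 and 4.63) but no H3K4me1. The Selenov site lay 3382 bp from the TSS of this selenoprotein gene, in an exon whose gene was not determined. It had H3K4me1 in Veh only (3.75) and H3K4me2 (6.43) and H3K4me3 (4.11) in GSK only. Near Rny3, a Y RNA gene, the window holds 3 RUNX matches, and the only other peak was GSK H3K4me3 with a fold of 5.21. The Gm12596 window holds 1 AP-1 and 1 ETS match, and its site had H3K4me3 (5.39 and 5.89) and Pol II (5.12 and 4.34) in both treatments and H3K27ac in Veh only (3.27). The Cdkl4 site had H3K4me1 alone (3.85 and 3.83). The sites near Atp6v1e2, Gm16619 and Rplp1 were bare in all 10 lists, with LSD1 folds of 6.68, 5.97 and 6.08. So 3 of the 10 strongest sites had no other peak, and 5 had an H3K4me3 peak in GSK cells. Motif matches were not limited to marked sites. The bare Rplp1 window holds 2 AP-1 matches and 1 RUNX match, and the bare Atp6v1e2 window holds 1 AP-1 match. The window of the marked Nbeal2 site holds no ETS, RUNX, AP-1 or SP/KLF match.

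Sites with marks of activity were few. The strongest with GSK H3K27ac after Nbeal2 lay near Ptgds, a prostaglandin D2 synthase, and in an intron for which the nearest TSS was that of Irf1, an interferon-induced transcription factor. The Ptgds site, at chr2:25465691-25466135, had Pol II folds of 11.1 in Veh and 7.87 in GSK cells, the highest Pol II value among the named sites, and H3K27ac of 4.12 and 4.69. The Irf1 site, at chr11:53795034-53795538, had LSD1 with a fold of 5.46, H3K27ac of 4.10 and 4.77, H3K4me3 of 4.76 and 4.79, and Pol II (5.35) and H3K4me2 (4.33) in Veh only. Its window holds 2 ETS matches. Among sites with H3K4me1 in GSK only, the strongest were near Rab44 (2.49), Gm31616 (3.26) and Cr2 (4.14), where the value is the GSK H3K4me1 fold. The Cr2 and Rab44 sites had H3K4me3 in both treatments, so that of these 3 only the Gm31616 site had no other mark.

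Motif letters split the sites by their marks. ETS letters were found in 8.14% (7.41 to 8.92) of the 200 bp windows of GSK-only sites, between 4.73% of grid points and 14% (13.0 to 15.0) of kept sites. Lost sites were at 13.0%, and GSK-only minus lost was −4.82 points (−5.89 to −3.74). Among the 1887 GSK-only sites with another peak the share was 13.5%, and among the 3152 bare ones it was 4.92%, a difference of 8.60 points (6.92 to 10.4). RUNX letters were in 24.9% of marked and 14.7% of bare sites, against 34.1% of kept sites, 29.0% of lost sites and 13.9% of grid points. AP-1 letters were in 9.43% and 5.87%, against 13.3% of kept sites, 11.9% of lost sites and 6.04% of grid points. For these 3 families the bare sites stood within 1 point of the grid, and the shares of RUNX and AP-1 letters at marked GSK-only sites lay between those of the grid and of lost sites. Kept sites, lost sites and grid points are whole sets here, not split by their marks.

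GC-rich letters behaved otherwise. SP/KLF letters were in 12.1% (11.2 to 13.0) of GSK-only windows, 15.2% of kept, 5.77% of lost and 1.65% of grid windows, so that GSK-only sites exceeded lost sites by 6.32 points (5.29 to 7.37). Bare GSK-only sites had them in 8.5%. EGR letters, GTGGGNG, were in 27.2% of GSK-only, 29.9% of kept, 20.9% of lost and 10.7% of grid windows. The EGR letters fit inside the leading word of group 6, a C-rich tandem repeat. Median GC content was 51.5% for GSK-only sites, 53.0% for kept sites, 48.5% for lost sites and 41.5% for grid points. GATA and NFAT letters were less frequent at GSK-only sites (7.90% and 3.57%) than in the grid (13.4% and 5.45%). A match is only a run of letters, and none of these factors was measured.

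**Figure D3:**
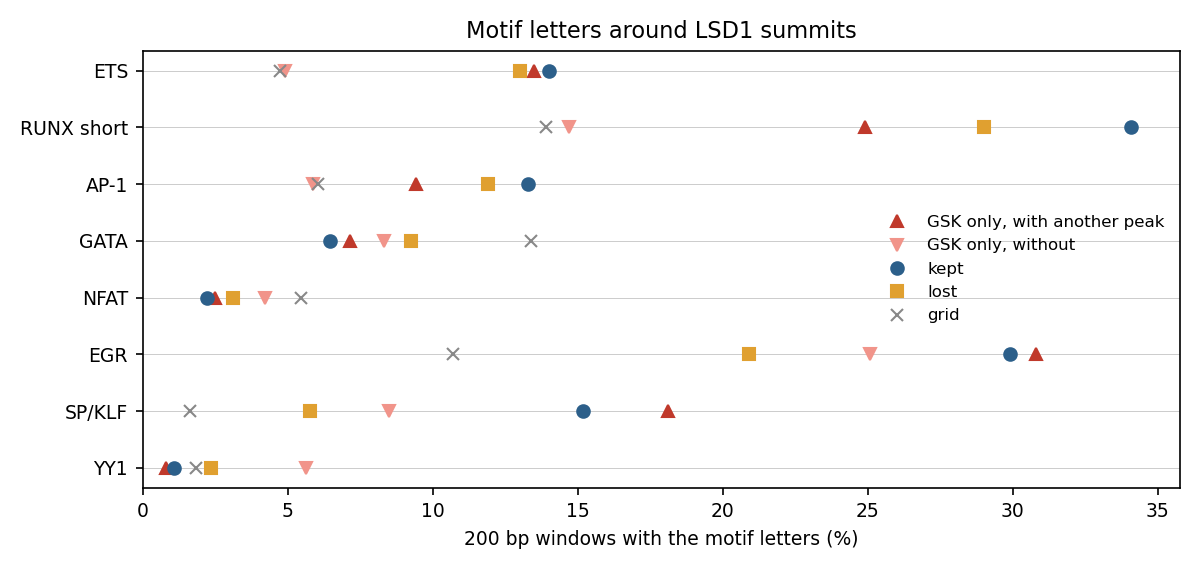
Symbols give the percent of 200 bp windows (horizontal axis) that hold the letters of each motif, for GSK-only sites with and without another peak, kept sites, lost sites and grid points. For ETS, bare GSK-only sites stand at 4.92% and the grid at 4.73%. Marked GSK-only sites stand at 13.5%, kept sites at 14% and lost sites at 13.0%. For YY1, bare GSK-only sites are at 5.65% and marked ones at 0.795%. Kept sites, lost sites and grid points were not split by their marks.

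YY1 letters set the bare GSK-only sites apart from the marked ones. AAGATGGC was found in 193 GSK-only windows, 3.83% (3.33 to 4.40), against 1.07% (0.806 to 1.42) of kept, 2.37% of lost and 1.84% of grid windows. It was in 178 bare GSK-only sites (5.65%) and 15 marked ones (0.795%). Kept sites, lost sites and grid points were not split by their marks, so no share for their bare part is given. The printed windows of groups 3 and 8 each hold these letters, and 101 of the 193 windows belonged to groups 3, 7 and 8. In these groups together 33.1% of windows held the letters, and in all other GSK-only sites 1.94% did. The letters were in 64 of 170 windows of group 3 and 36 of 66 of group 8, but in 1 of 69 of group 7. Among the bare sites outside the groups the share was 2.77% (79 of 2854), so the groups did not hold all of the difference between bare and marked sites.

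Repeated DNA was more frequent than in any set compared. At least 50% of the window was soft-masked as repeat or low-complexity sequence in the reference at 1662 GSK-only sites, 33.0% (31.7 to 34.3), against 17.9% (16.8 to 19.1) of kept sites, 26.3% (25.3 to 27.3) of lost sites and 29.0% (28.7 to 29.2) of grid points. The share was 43.1% (41.4 to 44.9) at bare sites and 16% (14.4 to 17.7) at marked ones, a difference of 27.1 points (24.7 to 29.5). It was 33.7% at −log10 p from 3 to 4 and 20.3% at 10 and over, while kept sites ran between 15.5% and 18.9% over the 5 bins with no trend.

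Some of this repeated DNA was copies of the same sequences. Groups 3, 7 and 8, singled out after their values were seen because at least 90% of their sites were bare, held 305 GSK-only sites, 6.05% (5.43 to 6.75). Kept sites fell in them in 0.592% (0.404 to 0.866), lost sites in 1.99% (1.70 to 2.34) and grid points in 1.63% (1.56 to 1.70). Group 3 had 170 sites, group 7 had 69 and group 8 had 66. Their leading words, TACATTTCCAATGCTA, AGACCTCTGGTGAGTG and CCAGAGGACAGGTGTC, occur 54939, 10800 and 4260 times on the assembled chromosomes, and 89.0%, 89.2% and 90.3% of the bases in their windows were soft-masked. The groups were built on the GSK-only windows, which favours matches among them. These 3 were also picked for bare sites, and only 11.6% of kept sites were bare. A low share of kept sites in them therefore follows in part from that choice. The repeat class of each group was not assigned, as no repeat annotation was used.

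Of the 305 sites, 298 had no peak in the other 10 lists, which follows from how the groups were singled out. As to position, 202 (66.2%) were intergenic and 3 were in exons, and 32 (10.5%) were on the X chromosome. They were scattered over 287 nearest genes. Their LSD1 peaks were of ordinary strength, with median −log10 p of 4.62, 5.12 and 4.62 in groups 3, 7 and 8 and a highest value of 10.1, and 140 of them had a −log10 q of at least 2. Reads were kept by the authors only where they mapped uniquely, and the part of mappability or of the input library in these peaks was not tested. Outside the 3 groups, 32.8% (31.5 to 34.2) of the other 4734 GSK-only sites had GSK H3K4me1 and 60.3% were bare, so the low share of marked sites did not rest on them.

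The other groups did not part the sets in this way. Group 2, whose leading word is AGTGCTGGGATTAAAG, held 4.27% of GSK-only, 4.14% of kept and 3.59% of lost sites. Group 5 held 2.14%, 1.84% and 3.16%, and its leading word CATGTGGTTGCTGGGA contains the RUNX letters. The tandem repeats of groups 1, 4 and 6 together held 284 GSK-only sites, 5.64% (5.03 to 6.31), against 7.24% (6.51 to 8.05) of kept and 4.63% (4.17 to 5.12) of lost sites. Group 6 alone held 0.893% of GSK-only, 1.43% of kept and 0.332% of lost sites and 0.0881% of grid points. The Prex1 window printed above belongs to group 4 and the Gm16619 site, the sixth strongest, to group 1.

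**Figure D4:**
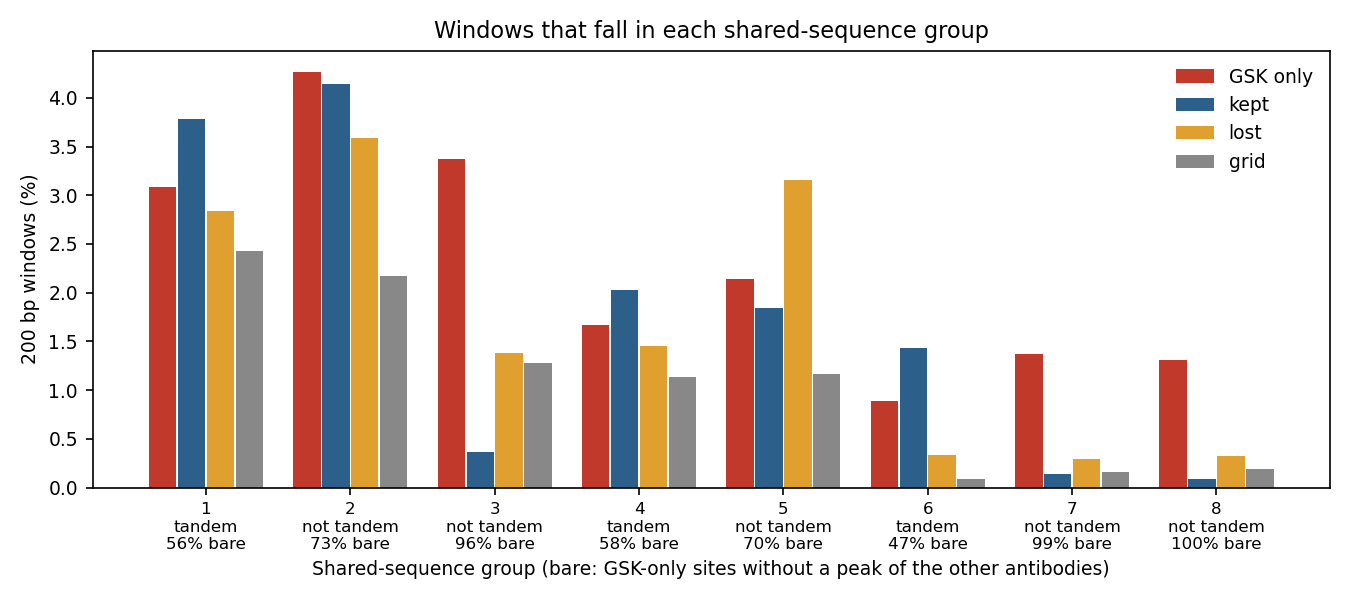
Bars give the percent of 200 bp windows (vertical axis) that fall in each of the 8 shared-sequence groups, for GSK-only, kept and lost sites and grid points. Groups 3, 7 and 8 were picked because at least 90% of their GSK-only sites were bare. There the GSK-only bars stand at 3.37%, 1.37% and 1.31% and the kept bars at 0.364%, 0.137% and 0.0911%. The other groups do not part the sets in this way.

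By nearest curated TSS, the 5039 sites were assigned to 4041 genes, which is 15.4% of the 26180 curated genes. Of these, 3284 had a single site. Long genes and gene deserts collect more sites, so a count of grid points nearest to the same genes is given as background, with 41.5 GSK-only sites per 1000 grid points over all genes. The nearest gene need not be the gene a site acts on, nor the gene whose intron or exon holds it. The lists below were chosen with earlier results of these data known, and no count over them is a test.

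Memory and progenitor genes were often nearest to a GSK-only site. Of 16 genes, 12 had one (75%), with 19 sites in all or 184 per 1000 grid points, and kept sites were nearest to 11 and lost sites to 8. Bach2, which restrains effector differentiation, had 4 sites, all in introns. The strongest of these, at chr4:32387884-32388175, had an LSD1 fold of 5.86, H3K4me1 of 3.65 in Veh and 3.47 in GSK cells and H3K4me2 of 5.35 and 4.93. A further Bach2 site had H3K4me1 in Veh only, with a fold of 3.03. The chemokine receptor gene Ccr7 had 2 sites, one with a fold of 4.80 and H3K4me1 of 2.19 and 2.32. Il7r, the receptor for the survival cytokine IL-7, had 2, of which the stronger (5.33) was bare. Lef1 and Klf2 had 2 each, and genes with 1 site included Id3, Eomes, Foxo1, S1pr1, Cxcr5 and Satb1. The Eomes site lay 21128 bp from the TSS of this gene, with H3K4me1 of 4.41 and 4.86. In all, 11 of the 19 sites had GSK H3K4me1, and none had it in GSK only.

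Of 20 effector, cytotoxic and cytokine genes, Ifng was the one with a GSK-only site, whereas kept sites were nearest to 10 and lost sites to 5. The Ifng site, at chr10:118470647-118470933, was bare, with a fold of 5.42 and −log10 p of 11.6, and a Veh LSD1 peak lay 1.32 kb from it. The list has 49 grid points, so its sites came to 20.4 per 1000, and from 1 site on so few grid points no departure from the 41.5 over all genes can be read. When a site within 50 kb of a TSS was counted instead, a rule chosen after seeing the data, 3 of the 20 genes had a GSK-only site, 17 a kept site and 10 a lost site. On the same count 11 of 16 memory and progenitor genes had a GSK-only site, 11 a kept site and 11 a lost site.

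Inhibitory receptor genes had 6 sites at 5 of 12 genes, or 118 per 1000 grid points, namely Pdcd1 with 2 and Tigit, Ctla4, Btla and Vsir with 1. Kept and lost sites were each nearest to 6 genes of the list. The site 3631 bp from the TSS of Pdcd1, which encodes PD-1, had an LSD1 fold of 4.45 and an H3K4me1 peak in the GSK list alone, with a fold of 2.5. The Tigit site had an H3K4me3 peak in GSK only (4.34), and the other 4 were bare. Among these 4 was the second Pdcd1 site, which lay 286272 bp from the Pdcd1 TSS.

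Of 22 effector and lineage transcription factor genes, 14 had a GSK-only site, at 91.3 sites per 1000 grid points, with 3 each at Zeb1 and Runx2, 2 each at Prdm1, Zeb2, Runx1 and Bcl11b, and 1 at Tbx21, Tox, Runx3, Ikzf2, Ikzf3, Rora, Bcl6 and Maf. Of their 22 sites, 13 were bare and 3 had H3K4me1 in GSK only, at Bcl11b (2.01), Runx2 (4.80) and Tbx21 (2.07). Over all GSK-only sites, 62.6% were bare and 5.70% had H3K4me1 in GSK only. The Tbx21 site, beside the gene of the effector regulator T-bet, also had H3K4me3 in both treatments (5.73 and 6.49) and H3K27ac (3.30) and Pol II (4.54) in Veh only. The strongest was near Runx3, with a fold of 5.0 and H3K4me3 of 4.42 and 4.17.

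Among 27 genes of the AP-1, BATF, IRF, NFAT, NR4A, EGR and NF-kB families, 12 had a site, at 160 sites per 1000 grid points. Nfatc2, which encodes an NFAT factor activated by calcium, had 5, and 2 of these were bare. Irf4 had 3, Fos and Nfkb2 had 2, and Fosb, Fosl2, Jun, Irf1, Irf2, Irf8, Egr2 and Egr3 had 1. The Egr2 site had the highest GSK H3K4me1 fold of the list, 6.63, beside 5.45 in Veh cells. Of the 20 sites, 13 had GSK H3K4me1 and 4 were bare, and none had H3K4me1 in GSK only.

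Of 27 T cell receptor and costimulation genes, 8 had a site, at 158 sites per 1000 grid points, namely Cblb with 3, Cd247 and Cd8a with 2, and Plcg1, Cd28, Icos, Cd6 and Dgkz with 1. The Dgkz site was the strongest near any list gene. Dgkz encodes a kinase that removes diacylglycerol after receptor signalling. The site lay in an exon at chr2:91975639-91976174, with an LSD1 fold of 6.40 and −log10 p of 15.3, H3K4me1 of 3.04 and 3.33, H3K4me2 of 5.04 and 5.39 and H3K4me3 of 4.44 and 6.11. All 3 Cblb sites and both Cd8a sites were bare.

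Of 28 genes of IL-2, JAK, STAT and SOCS signalling, 8 had 1 site each, at Il2ra, Il12rb1, Il12rb2, Il18r1, Il21r, Jak2, Stat3 and Stat5b, and 6 of the 8 were bare, with 114 sites per 1000 grid points. The bare Stat5b site, in an intron at chr11:100837412-100837978, had an LSD1 fold of 6.92 and −log10 p of 13.6. Stat5b transmits the IL-2 signal. Of 20 chemokine receptor and adhesion genes, 6 had a site (Ccr8, Cxcr6, S1pr5, Itga4, Itgb2 and Cd44), where kept and lost sites were each nearest to 13, and the density was 52.2 sites per 1000 grid points. The S1pr5 site, in an exon, had a fold of 6.10, H3K4me3 of 5.22 and 5.82 and H3K4me2 of 4.13 and 4.44. At Cd44, H3K4me1 was in GSK only (3.30), while H3K4me2, H3K4me3 and H3K27ac peaks were in Veh only.

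Of 18 genes of LSD1 and its partners, Gse1 alone had a site, although it had 5, which made 63.3 per 1000 grid points, and kept sites were nearest to 4 genes and lost sites to 7. Gse1 encodes a protein found in complexes with LSD1. Its 5 sites were intronic, with LSD1 folds of 3.21 to 4.50, and 3 of them had H3K4me1 in both treatments. Markers of other lineages gave Cd79a with 1 site and Ebf1 with 2 among 8 B cell genes, at 143 sites per 1000 grid points, and no site for 8 myeloid genes or for 3 CD4 and regulatory T cell genes.

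**Figure D5:**
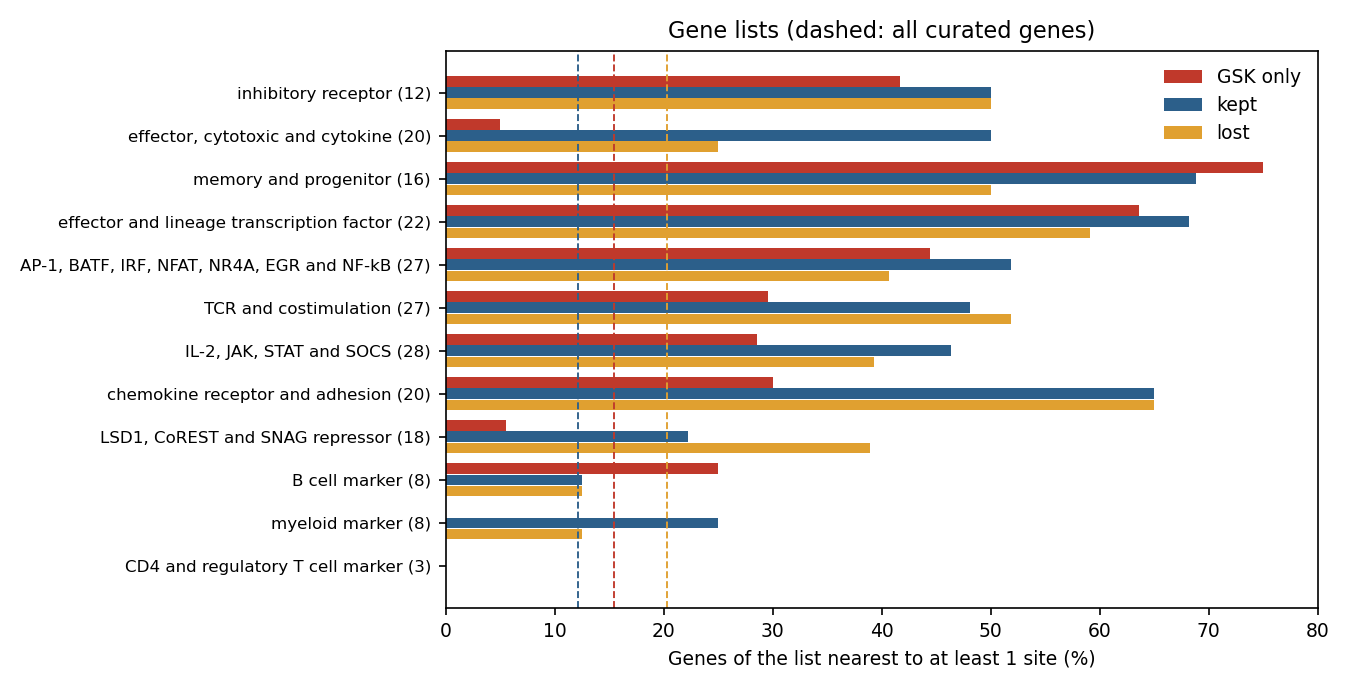
Bars give the percent of genes in each list (number of genes in brackets) that are the nearest curated gene of at least 1 GSK-only, kept or lost site, and dashed lines give the same for all curated genes. GSK-only sites reach 75% for memory and progenitor genes and 5% for effector, cytotoxic and cytokine genes, where kept sites reach 68.8% and 50.0%.

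Sites were clustered at some genes, and 16 genes were nearest to 5 or more. The largest number was 12, at Gm30214, over summits from chr14:53073332 to 53644206, with 8 bare sites, no kept site and 6 lost sites. Dad1, further along the same chromosome, had 5 from 53757873 to 54211624. All 12 summits at Gm30214 fall among the variable gene segments of the T cell receptor alpha chain, which are not curated transcripts and were therefore not used as promoters. Between the first and last Trav segment, chr14:52427967-53977678, there were 17 GSK-only sites, 1 kept site and 10 lost sites. Of the 17, 11 were bare and 5 had GSK H3K4me1, the folds ran from 3.30 to 5.74, and 3 summits lay inside a segment. The heavy chain segments of immunoglobulin, Ighv on chromosome 12, gave the opposite order, with 6 GSK-only, 9 kept and 25 lost sites. The Trbv region gave 3, 5 and 4, and Igkv gave 4, 0 and 1. OT1 cells carry a receptor transgene, and its bearing on this region was not tested.

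The other genes with at least 5 sites were 7530428D23Rik, Gm47754 and Zfp600 with 6, and 4930467E23Rik, Adcyap1, Ankrd44, Atp10a, Cntnap2, Foxp1, Gm525, Gse1, Gtdc1, Itpr2 and Nfatc2 with 5. All 6 sites at 7530428D23Rik and all 5 at Adcyap1 and Cntnap2 were bare. At Gm47754 and at Gse1, 3 sites had GSK H3K4me1. Foxp1, a factor that keeps T cells quiescent, had 5 GSK-only, 4 kept and 10 lost sites, so the gene was not bound with inhibitor only. Zfp600, in a cluster of zinc finger genes, had 6 GSK-only sites, 1 kept and no lost site.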

How the data were processed

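Peak lists of 12 ChIP libraries from mouse CD8+ T cells were used. The 4 input samples were not analysed here, as no peak list was given for them. Reads were aligned by the authors with Bowtie2 to mm10, keeping unique positions and dropping duplicates, and MACS2 called peaks over input with a stated p-value cutoff of 0.001. They also sampled libraries to equal read numbers for signal tracks, and whether peak calling used these reads is not given in the sources used here. LSD1 and Pol II peaks are narrow and carry a summit, while histone peaks are broad regions. Each deposited list gives per peak a fold enrichment (a ratio of ChIP to local background), a −log10 p and a −log10 q, and a score that the authors derived from these. The lowest −log10 p was 3.01 in both LSD1 lists, and the lowest −log10 q in the histone lists was 3.01 to 3.03. The deposited lists hold no read numbers. The study states read numbers of each library, which differ between treatments. They were used here only to set depth beside the length of the lists.

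Sites, overlaps (1 bp or more) and distances were computed in Python 3.11.15 with NumPy 2.4.6, pandas 2.3.3 and SciPy 1.17.1 from the deposited coordinates, which match the RefSeq GRCm38.p6 reference (mm10). Curated transcripts gave 31647 TSSs of 26180 genes. Printed positions count from 1. Shares have Wilson 95% intervals and differences of shares have Newcombe intervals. A net difference is the percent of sites with a peak in GSK only minus that in Veh only, whose bounds come from a Wilson interval for the GSK part of the sites that differ. With 1 library per group no p-value was computed. Sequence groups were built by taking the word of 16 bases found in most windows, adding all windows with a word present in 20% of its windows, and repeating until no word was in 25 windows. The functions were tested on simulated intervals and windows. Sites named are the 10 strongest by −log10 p, the 3 strongest with each of 4 states, genes of the fixed lists and genes nearest to 5 or more sites. Sequence groups, receptor loci and the examples among them were chosen after their values were seen. The members and lists were chosen with earlier results of these data known. Results for some genes are not reported here, though list counts include them.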

Additional observations from a re-analysis of the deposited data

How the results depend on the processing

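Other rules for the sites and for marks kept the sign of the H3K4me1 and H3K4me2 net differences and of the H3K4me1 difference from kept sites. The other results listed here are counts or shares, which cannot change sign. No paired analysis was possible because each antibody and treatment has 1 library, and the numbered input samples carried no peak list. With 1 library a group, none could be left out. Of 46 alternative values computed, 24 stayed within the interval or within 1.5 times the count, and 22 moved outside it. Requiring a −log10 q of at least 2 for the LSD1 peak left 2583 sites. At these, H3K4me1 in GSK was at 41.9%, the net difference was 4.68 points for H3K4me1 and −6.62 points for H3K4me2, and 48.3% had no other peak. The H3K4me1 difference from kept sites was then −25.7 points, 42.8% of sites were intergenic, 9.91% held ETS letters and 30.6% were repeat. When a mark had to cover the summit, H3K4me1 was at 27.3%, the H3K4me2 net difference was −3.53 points, 66% had no other peak and the difference from kept sites was −33.8 points. With marks within 1 kb of the summit these values were 35.8%, −5.46 points, 59.2% and −48.3 points. Mark lists of equal length gave net differences of 1.92 points for H3K4me1 and −0.774 points for H3K4me2. At LSD1 −log10 p of 10 and over, chosen after seeing the data, the difference from kept sites was −3.17 points, with an interval that includes 0. ETS letters were in 4.01% of 100 bp windows, and 31.2% of whole peaks were repeat. Chosen after seeing the data, the share in groups 3, 7 and 8 was 5.42% at −log10 q of at least 2, 6.28% with no Veh peak within 2.5 kb and 4.72% in 100 bp windows, and memory and progenitor genes nearest to a site numbered 8 at −log10 q of at least 2. Read depth differed between treatments and was not corrected for, which limits every comparison of Veh with GSK.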
